A study of Mus musculus with 2 samples.

Results

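The 8 genes Ifngr2, Ccr4, F11r, Tmem50a, Mfsd1, Sumf2, Setd4 and Otud3 are short and held many listed regions per kb. In these regions captured methylated DNA was called higher in Control than in Uhrf1 conditional knockout (cKO) chondrocytes, from 1 library each. Of the 43 regions overlapping the genes, 29 (67.4%) had a false discovery rate (FDR) of at most 5%, against 56.9% of all regions. The genes were chosen from the region list itself, as protein-coding genes of 15.2 to 27.0 kb that held 5 or more regions. All 8 stood among the 10 named genes with the most regions per kb. Their counts and densities are thus a description and carry no test. The 8 genes stand against 21887 protein-coding genes in all. Each was followed through its annotated RefSeq span widened by 20 kb on either side, and the 8 windows held 62 of the 35861 regions in the list (0.173%).

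The cells were primary chondrocytes from knee cartilage of C57BL/6-background mice at postnatal day 3. There was 1 library from Uhrf1 cKO cells and 1 from Control cells, and both cultures had been exposed for 24 hours to 100 ng/ml of rhBMP-2, a bone morphogenetic protein that promotes cartilage and bone formation. The promoter that drove the Cre recombinase, the alleles behind the Control label and the number of animals pooled are not stated in the labels used here. The region list holds no expression values, so the cell type label could not be set against marker genes. After removal of duplicates the cKO library had 15039206 tags and the Control library 9782276, per the file headers. No value has a replicate check.

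Uhrf1 recognises DNA that carries methylation on only the parental strand after replication and brings the maintenance methyltransferase Dnmt1 to it. Methylation at CpG dinucleotides is common in the transcribed bodies of genes, while CpG-rich promoters are usually free of it. The MBD2 protein binds methylated CpG, so DNA captured with it and then sequenced reports where methylated CpG is dense. A lower cKO signal in such a list cannot be told apart between fewer methylated copies per cell, fewer methylated cells and a difference between the libraries.

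Every region carries values from the authors' deposited table. The fold runs from Control to cKO: it is the Control tag level at the region's summit over the local background taken from the cKO library, so a fold above 1 means less signal in cKO cells. The tag count is that of the Control library alone, and the FDR is the caller's false discovery rate in percent. The cKO tags of single regions were not used here. Positions are in the mm10 build, and exon, intron and UTR classes were not analysed here.

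The upstream sequence of 3 members shows how the regions lay relative to transcription starts. RefSeq promoter windows (GRCm38.p6, 250 bases before the start to 50 after it) were matched for 7 of the 8 members. The motif searched was the dinucleotide CG, which reads the same on both strands and was found in 95.4% of 21263 promoter windows of protein-coding genes, with a median of 13 per window. The 250 bases before the start are given for Ccr4, the member whose promoter window was overlapped by a region, for Setd4, whose nearest region came closest to the start without reaching the window, and for Ifngr2, the member with the most CpG there. They lie at chr9:114496545-114496794 (minus strand), chr16:93603816-93604065 (minus strand) and chr16:91546809-91547058 (plus strand), and capitals mark every CG.
Ccr4: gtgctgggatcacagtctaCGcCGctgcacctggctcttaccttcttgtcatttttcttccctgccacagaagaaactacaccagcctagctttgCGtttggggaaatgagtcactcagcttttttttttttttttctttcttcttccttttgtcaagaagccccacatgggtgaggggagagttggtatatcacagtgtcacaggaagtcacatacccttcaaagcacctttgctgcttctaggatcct
Setd4: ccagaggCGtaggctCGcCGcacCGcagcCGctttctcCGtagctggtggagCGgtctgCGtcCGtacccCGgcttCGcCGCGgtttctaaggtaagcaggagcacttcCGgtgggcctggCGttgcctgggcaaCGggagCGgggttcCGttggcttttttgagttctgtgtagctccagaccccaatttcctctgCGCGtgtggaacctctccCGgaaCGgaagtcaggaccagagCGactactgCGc
Ifngr2: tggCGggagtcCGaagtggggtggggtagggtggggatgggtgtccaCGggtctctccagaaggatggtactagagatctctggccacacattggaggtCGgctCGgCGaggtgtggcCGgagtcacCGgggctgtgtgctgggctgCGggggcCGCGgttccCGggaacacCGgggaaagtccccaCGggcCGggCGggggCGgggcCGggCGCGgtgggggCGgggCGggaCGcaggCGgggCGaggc

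Among the 7 members with a promoter entry, 1 window was overlapped by a region, that of Ccr4, against 0.823% of all promoter windows of protein-coding genes. The region at chr9:114496628-114497068 covered 167 of the 250 bases shown. The Ccr4 window is poor in CpG, with 3 in 300 bases, a number not exceeded in 23.9% of all windows. The Ifngr2 window held 31 CpG and the Setd4 window 29, numbers not exceeded in 87.4% and 84.6% of windows. The remaining members held 11 (Sumf2), 19 (F11r), 21 (Mfsd1) and 22 (Otud3). Over all genes with 5 or more regions in the span, 17 of 1164 promoter windows were overlapped (1.46%). The nearest region began 585 bp inside Setd4, whereas in Ifngr2, Sumf2, Otud3, F11r and Mfsd1 it lay 3.93, 4.42, 4.42, 4.56 and 5.24 kb from the start, in each case inside the gene. In these 6 genes every region within the span thus lay downstream of the RefSeq start used here, and the stretch next to the start was free of listed regions. No listed region says only that the call was not made there, not that the sequence was unmethylated.

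**Figure D1:**
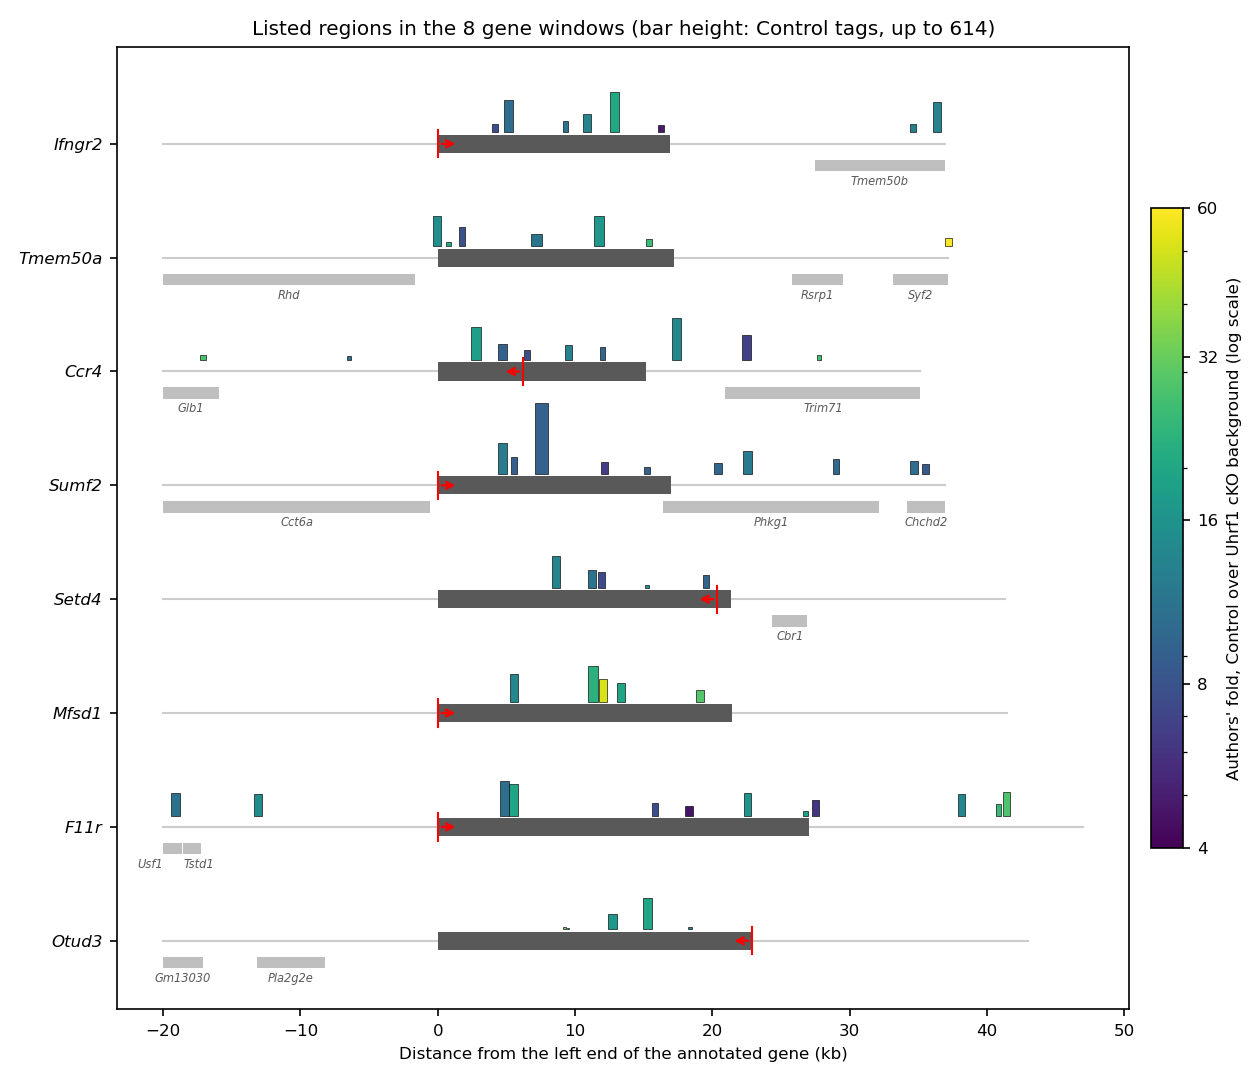
Map of the 62 regions in the 8 windows, with distance from the left end of each annotated gene in kb on the x axis and 1 row per gene. Dark bars are the genes, pale bars neighbouring protein-coding genes, red arrows the RefSeq start and direction (none is drawn for Tmem50a), the height of each coloured bar the Control tags (the tallest is 614, in Sumf2) and its colour the authors' fold of Control over cKO; Setd4, Mfsd1 and Otud3 have no region outside the gene.

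Taken by position, 43 of the 62 regions overlapped the member genes themselves and 19 lay in the 20 kb flanks. The spans carried 0.27 regions per kb over 159 kb, the flanks 0.059 per kb over 320 kb, and the whole list corresponds to 0.0133 per kb. The higher density of the spans is what chose the genes. The flanks split the members. Setd4, Mfsd1 and Otud3 had 5 regions each inside the gene and 0 in 40 kb of flank, and a count of 0 allows up to 3 regions, or 0.075 per kb, for counting error alone. Tmem50a had 1 in its flanks, Ifngr2 had 2, Ccr4 and Sumf2 had 5 each, and F11r had 6. Of the 19 flanking regions, 12 lay inside a neighbouring protein-coding gene.

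Ifngr2 encodes the signalling chain of the receptor for interferon gamma, which carries the kinase Jak2. The gene (chr16:91547059-91564007) held 6 regions, the highest density of the 8 at 0.354 per kb. Regions covered 18.6% of its bases, the highest share of the 8, against 8.85% in Otud3, the lowest. The strongest region of Ifngr2, at chr16:91559589-91560230, had 347 Control tags (95% Poisson interval 311.4 to 385.5, counting error only), a fold of 20.08 and an FDR of 0%. Moving from the start to the end of the gene, the Control tags were 72, 284, 98, 162, 347 and 63. The folds in the same order were 7.44, 10.46, 11.16, 13.61, 20.08 and 4.81. The outermost regions were thus the thinnest and had the smallest folds, and both had an FDR above 98% (98.84% and 100%), whereas the 4 between them had an FDR of at most 0.19%. The flank held 2 regions, both inside Tmem50b, a paralogue of Tmem50a, with 71 and 262 tags and folds of 12.56 and 13.59.

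Ccr4 encodes a chemokine receptor for Ccl17 and Ccl22 that is best known from T helper and regulatory T cells. The gene (chr9:114490316-114505476) held 5 regions in 15.2 kb, and 5 more lay in its flanks. Within the gene, from low to high coordinate and so against the direction of transcription, the Control tags were 290, 136, 89, 134 and 116. Their folds were 18.34, 9.22, 7.7, 13.18 and 9.79. The third of these is the region over the promoter window, and it had the fewest tags, the smallest fold and the only FDR above 5% within the gene (41.52%). The RefSeq start used here lies 8.93 kb inside the annotated span, so the regions at chr9:114499551-114500094 and chr9:114502149-114502499 were upstream of that start but within the span of other transcript models. The richest region of the window lay 1.87 kb outside the gene at chr9:114507350-114508030, with 367 tags and a fold of 14.34. Of the other flanking regions, 1 lay in Glb1, the lysosomal beta-galactosidase gene (47 tags, 27.65-fold), and 2 in Trim71, a developmental RNA-binding ubiquitin ligase gene (216 tags, 6.72-fold, and 44 tags, 26.66-fold).

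F11r encodes junctional adhesion molecule A, an immunoglobulin-type protein of tight junctions that is also found on leukocytes and platelets. It was the longest member (chr1:171437561-171464593) and had the most regions in its window, 12, split evenly between the gene and its flanks. The Control tags within the gene, in the direction of transcription, were 302, 272, 109, 82, 192 and 42. The corresponding folds were 10.41, 19.39, 7.59, 4.62, 16.1 and 18.78. The pair next to the start, at chr1:171442119-171442732 and chr1:171442785-171443403, was separated by 52 bp and carried the highest tag counts of the gene, and a gap of 9794 bp without a listed region followed. The FDR was 0% for this pair and for the region with 192 tags, and 5.44%, 100% and 28.46% for the other 3. In the flanks, 5 of the 6 regions had an FDR of 0%. These included a pair 101 bp apart that lay 13.6 and 14.1 kb beyond the end of the gene, outside any annotated gene model, with 97 tags at 24.76-fold and 204 tags at 28.13-fold. A further flanking region lay in Usf1, a transcription factor gene (199 tags, 11.01-fold).

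Tmem50a encodes a small membrane protein of poorly known function. The gene (chr4:134897849-134915028) held 6 regions, at 0.349 per kb, of which 5 had an FDR of at most 0.45%. By rising coordinate the Control tags were 261, 33, 170, 108, 259 and 66, and the folds were 15.32, 20.85, 7.8, 11.32, 16.73 and 25.38. The region of 33 tags was the exception by FDR, at 35.37%. The regions gathered toward the low-coordinate end, where 3 summits lay within 1.63 kb and the lowest region reached beyond the annotated end. The window's flank held a single region, at chr4:134934832-134935277 inside Syf2, a splicing factor gene. It had 71 tags and the largest fold of all 62 regions, 59.11, with an FDR of 0%, and it sat 19.8 kb from Tmem50a, near the limit of the window. It counts for Tmem50a only because of the 20 kb rule.

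Mfsd1 encodes a lysosomal membrane transporter of the major facilitator superfamily that depends on the partner protein Glmp. The gene (chr3:67582768-67604231) had 5 regions with an FDR of 0% each, and it was the only member without a region above 5% in its window. The Control tags along the gene were 245, 312, 201, 159 and 103, none below the median of all regions, 103. The folds were 14.06, 22.47, 50.91, 19.5 and 29.16, and the median of 22.47 was the highest of the 8 genes. The central 3 regions spanned chr3:67593705-67596375, with gaps of 79 and 692 bp between them. Mfsd1 also stood in the emptiest surroundings: 500 kb on each side of its window held 6 regions in all, 6.0 per Mb, against 10.9 per Mb for chromosome 3.

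Sumf2 encodes a protein of the endoplasmic reticulum related to the formylglycine-generating enzyme Sumf1, which activates sulfatases. The gene (chr5:129846990-129863951) held 5 regions and its downstream flank 5 more. The region with the most tags of all 62 lay here, at chr5:129854076-129854993, with 614 Control tags (interval 566.4 to 664.5) and 9.16-fold. Along the gene the tags were 266, 149, 614, 104 and 60, and the folds were 12.24, 9.02, 9.16, 6.56 and 9.37. Folds thus stayed within a narrow range while tags differed widely, and the median fold in the window, 9.59, was the lowest of the 8 genes. The FDR was at most 0.13% for the 3 regions nearest the start, 27.18% for the fourth and 100% for the fifth. All 5 flanking regions lay on the downstream side, 3 in Phkg1, a phosphorylase kinase subunit gene whose annotation overlaps that of Sumf2 by 521 bp, and 2 in Chchd2, a mitochondrial protein gene. Their folds ran from 8.54 to 12.05. The upstream 20 kb, which belongs almost wholly to the chaperonin gene Cct6a, held none.

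Setd4 encodes a protein methyltransferase with a SET domain, and Otud3 a deubiquitinase of the ovarian tumour family. Setd4 (chr16:93583457-93604791) lies 2019 kb from Ifngr2 on the same chromosome. In the direction of transcription its Control tags were 108, 28, 139, 151 and 275, and its folds were 9.6, 15.9, 7.32, 11.19 and 13.61. The 2 regions nearest the start had an FDR of 17.34% and 67.8%, and the other 3 were at 1.15% or below. The 3 regions farthest from the start were thus the better supported ones, the richest being chr16:93591764-93592342. Otud3 (chr4:138891063-138914026) lies 3976 kb from Tmem50a. Its tags in the direction of transcription were 24, 274, 136, 16 and 21, and its folds were 13.25, 19.78, 17.03, 26.37 and 32.96. Only the regions at chr4:138905996-138906664 (274 tags) and chr4:138903465-138904148 (136 tags) had an FDR of at most 5%, both at 0%. The remaining 3 regions of Otud3 had an FDR of 42.38% or 100%, and the thinnest, with 16 tags (interval 9.1 to 26.0), was the thinnest of all 62. The pair with 16 and 21 tags was separated by 5 bp and was listed as 2 regions.

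**Figure D2:**
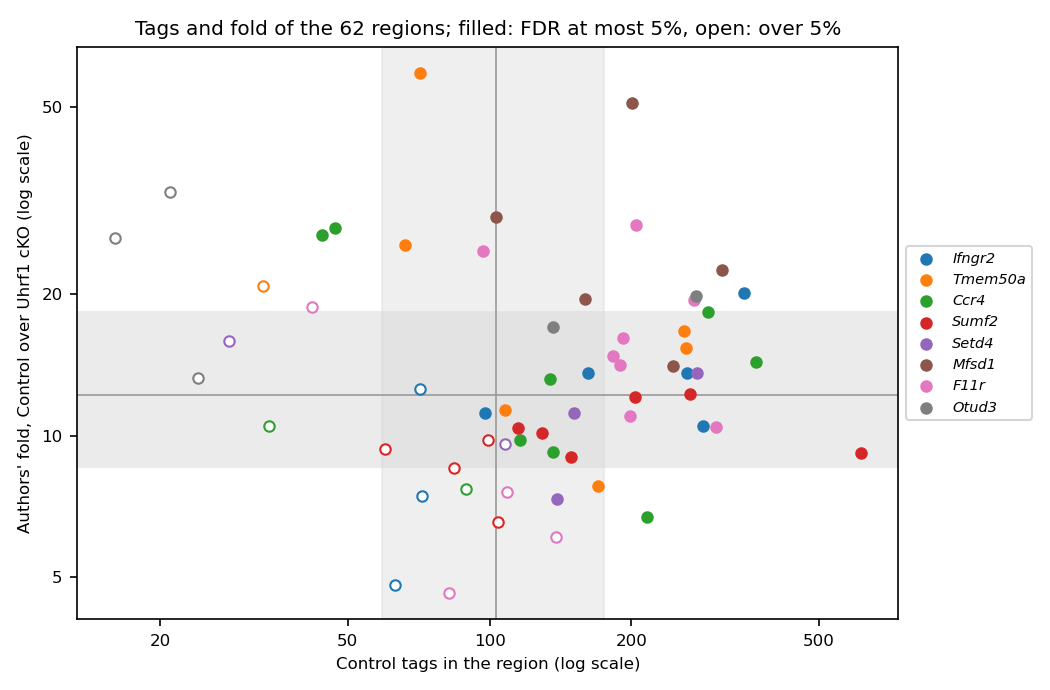
Control tags (x axis, log scale) and the authors' fold of Control over cKO (y axis, log scale) of the 62 regions, coloured by gene, with filled points at an FDR of at most 5% and open points above. Grey bands and lines give the middle 50% and the median of all 35861 regions; the open points lie at few tags or at small folds, and Mfsd1 has filled points only.

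Over the 8 windows together, the regions had somewhat more Control tags than the list as a whole and a similar fold. The median region had 136 tags (interquartile range 82.5 to 213), against 103 (59 to 175) over all regions. The median fold was 13.22 (9.65 to 19.24), against 12.18 (8.55 to 18.3). Of the 62, 44 reached a fold of 10 (71.0%, exact binomial 95% interval 58.1 to 81.8), against 64.6% of all regions. An FDR of at most 5% was listed for 43 (69.4%, 56.3 to 80.4), against 56.9% of all regions. The FDR share followed the tags. Of the 41 member regions with at least the overall median of tags, 37 had an FDR of at most 5% (90.2%), against 90.7% of such regions in the whole list, and below that median it was 6 of 21 (28.6%), against 22.8%. The 9 member regions under 50 tags had a median fold of 20.85, against 22.08 for such regions over the list, both above the medians of all regions in their set. Regions inside the genes and in the flanks had close medians, 13.25 and 12.56. Since the same list chose the members, these values are given without a test.

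**Figure D3:**
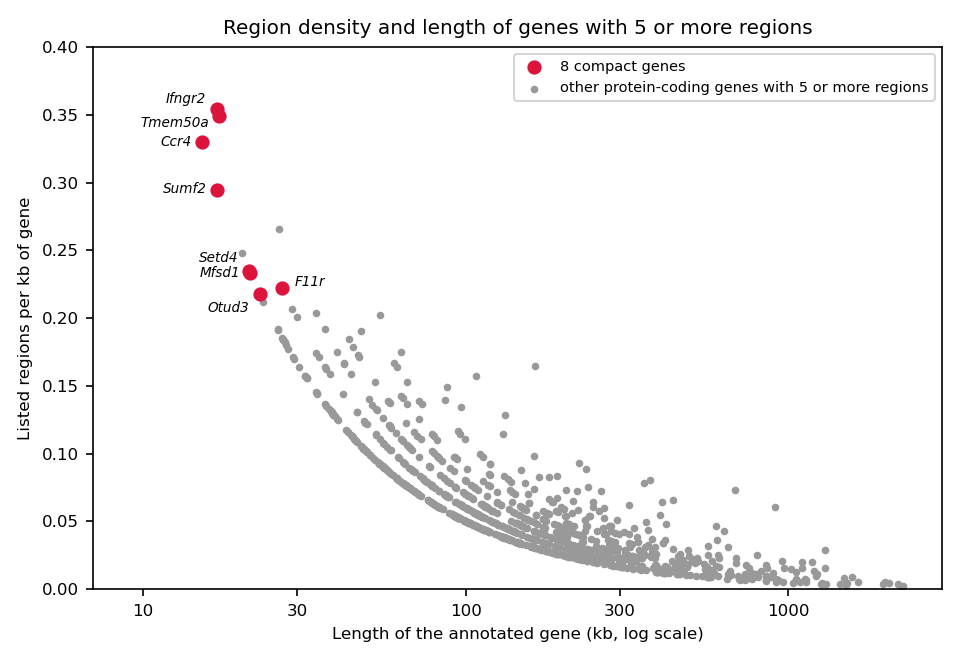
Length of the annotated gene in kb (x axis, log scale) and listed regions per kb of gene (y axis) for the 972 protein-coding genes with 5 or more regions, the 8 compact genes in red and the others in grey. The grey curves are genes with equal whole numbers of regions, and the 8 genes stand at the short end between 0.218 and 0.354 per kb.

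How compact the genes are is a matter of the rule, and the margins are given for scale. Of all protein-coding genes, 972 (4.44%) held 5 or more regions in the span, with a median length of 149.6 kb and a median density of 0.047 per kb. No more than 14 of them were as short as the longest member, out of 13744 genes of that length or less (0.102%). Otud3 was the last member inside the limit, at 0.218 regions per kb. Just outside stood Arhgef1 (0.212), Tctn2, a ciliary transition zone gene (0.207), and Syde2 (0.204). Uhrf1 itself, the targeted gene, had 5 regions in 20.2 kb (0.248 per kb) and ranked 6, between Sumf2 and Setd4. Which stretch of Uhrf1 the knockout altered was not examined, so less cKO signal there need not mean less methylation. Uhrf1 is 1 of the 2 genes among the 10 densest that are no members. By contrast, the long genes with the most regions, Wwox, Zfhx3, Tenm3, Foxn3 and Tshz2, held 29 to 55 regions each at 0.029 to 0.08 per kb. Their regions in the same kind of window had a median of 128 tags and a median fold of 11.32. The summits inside the compact genes were 2.59 kb apart in the median (35 spacings), against 28.1 kb between neighbouring regions over the list.

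Ranking by the widened window instead of the span divided the members. Every member had 5 or more regions in its window, as did 10.6% of protein-coding genes. By regions per kb of window among all 21887 genes, Ccr4 ranked 4, F11r 6, Sumf2 7, Ifngr2 45 and Tmem50a 127, whereas Setd4, Mfsd1 and Otud3 ranked 935, 943 and 1007. The last 3 are the genes whose flanks were empty. Farther out, the 500 kb on each side of the windows held 65 regions per Mb around both Tmem50a and Ccr4, 45 around Sumf2, 43 around Ifngr2, 29 around Otud3, 28 around Setd4 and 19 around F11r. The median protein-coding gene had 18 (interquartile range 9 to 29). Among genes with 5 or more regions in the span the median was 24. Thus 7 of the 8 genes had surroundings above the median gene, and Mfsd1 was the exception. F11r, at 19, was barely above it and was below the median of 24. The same 7 were above their own chromosome, but the chromosome rates, 10.9 to 17.7 per Mb, were themselves below the median gene. The share of all genes above both was not computed. Neither region density of the surroundings nor CpG density was matched, and their part in the counts was not tested.

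The number of regions per gene rested in part on thin regions and on how close neighbours were divided. When regions over an FDR of 5% were left out, Tmem50a and Mfsd1 kept 5 regions in the gene, Ifngr2 and Ccr4 had 4, Sumf2, Setd4 and F11r had 3, and Otud3 had 2. Under that limit Tmem50a ranked 1 and Mfsd1 2 by regions per kb, among 377 named genes with at least 5 such regions, and Ifngr2 no longer met the minimum. Joining regions less than 500 bp apart left 5 regions in Ifngr2, Tmem50a, Ccr4 and F11r and 4 in the other members. In the windows, 10 of 54 gaps between neighbouring regions were under 500 bp, against 907 of 35840 over the list. Genes chosen for many regions per kb have close neighbours by construction, so this difference is only a description.

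**Figure D4:**
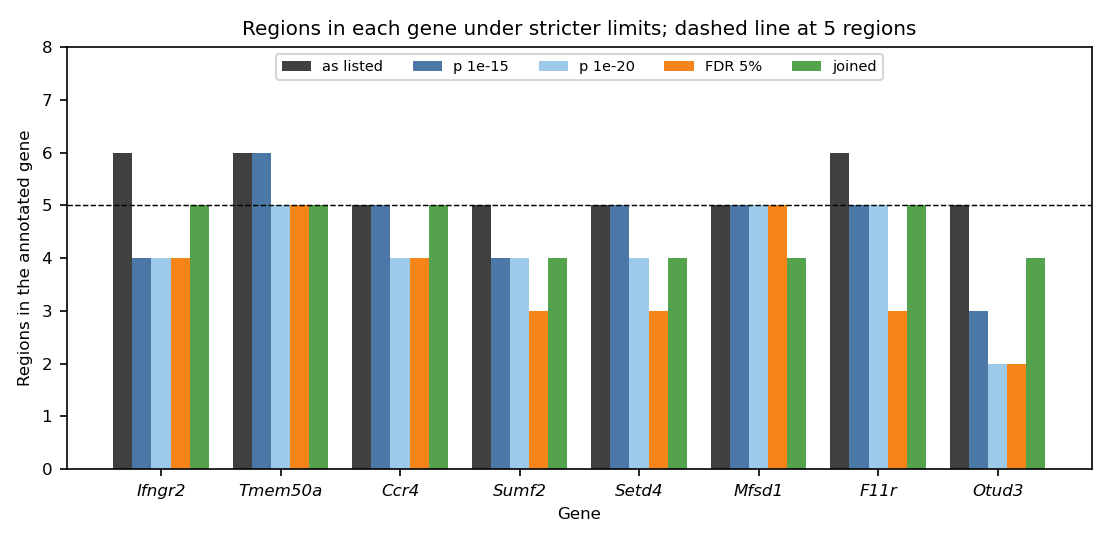
Number of regions overlapping each annotated gene (y axis) for the 8 genes (x axis), as listed, at stricter limits on the authors' p or FDR, and with regions less than 500 bp apart joined. The dashed line marks 5 regions; with an FDR of at most 5%, Tmem50a and Mfsd1 reach it.

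Genes related to the members by family or pathway were counted in windows of the same kind. Over all protein-coding genes, 65.4% had a region in the span widened by 20 kb, with a median of 1 region. Of 15 genes of interferon gamma signalling, 14 had a region, with a median of 2. The most regions in this list belonged to Ptpn11, a phosphatase gene of cytokine and growth factor signalling, with 6 at folds of 8.04 to 36.56. Of 11 class II cytokine receptor genes, the family of Ifngr2, 9 had a region. Ifnar1, an interferon alpha receptor gene, had 4 regions within 25.5 kb and 6 in its window, at 5.33-fold to 29.13-fold. It is a close neighbour of Ifngr2 and lies within the 500 kb surroundings counted for that gene. Their windows overlap at the edge but share no region. Tmem50b, the paralogue of Tmem50a, had 3 regions within 23.2 kb and 8 in its window. Most of those 8 were shared with the Ifngr2 window, and several of the shared ones lay inside Ifngr2.

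Chemokine receptors and their ligands Ccl17 and Ccl22 gave 14 of 24 genes with a region, and none of the 24 had 5 or more in its window. The highest number was 3, beside Ccr8, with 0 inside the gene. Among 13 genes for sulfatases and Sumf1, 11 had a region and 4 had 5 or more, led by Arsg with 8 and Sulf2, an extracellular heparan sulfate sulfatase gene, with 7. Of 16 SET domain genes, 13 had a region, and Smyd3 had 18 within 566.1 kb. Setd1b, a histone H3 lysine methyltransferase gene of 26.6 kb, had 4 within the gene at 0.15 per kb. Of 15 OTU-family deubiquitinase genes, 10 had a region, with at most 3 each. Of 15 junction genes, 11 had a region, and Pard3, a cell polarity gene, had 10 within 548.9 kb. Among 14 transporter genes of the MFSD group and Glmp, 11 had a region. Mfsd11 and Mfsd2b had the most, 5 each in the window. Of these, 4 lay within the 23.4 kb of Mfsd11, at 0.171 per kb, and 0 within Mfsd2b. Glmp, the partner of Mfsd1, had 3 in its window, of which 1 lay in the gene, at 8.73-fold to 22.52-fold. These lists differ in gene length, from a median of 6.9 kb for chemokine receptors to 52.3 kb for junction genes, and length was not matched.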

How the data were processed

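Methylated DNA was captured with MBD2 from DNA sheared to about 300 bp, in 1 Uhrf1 cKO and 1 Control library, per the labels' protocols. Per the file headers, the authors called regions with MACS 1.4.2 at a p limit of 1e-10, with Control as the enriched and cKO as the background library, and kept 1 tag per position (76.1% of cKO and 44.8% of Control tags). The genome build mm10 comes from the submitters' processing notes, and no aligner is named there. The fragment shift of 58 bp, per the file headers, is far under the sheared length, and its effect on borders and folds was not tested.

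Per the file headers, the deposited values are the Control tag count of each region, the score (minus 10 times the log10 of the caller's Poisson p), the fold ratio, the FDR in percent, and the length and summit in bp.

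Gene spans were those of RefSeq GRCm38.p6, and all symbols matched. An overlap of 1 bp counted. With 1 library per genotype no test was made. For the same reason the 95% intervals (exact binomial, Poisson) cover counting error only, not the spread between animals or libraries. The members and lists were chosen with earlier results of these data known. Named genes were the members, their protein-coding neighbours, those next to the density limit, up to 4 per list by number of regions, the 5 long genes and Uhrf1. Gm and Rik models were not ranked by span, and a further gene among the 10 densest is not reported here. Alternatives were stricter p and FDR limits, narrower windows, summit overlap, joined regions and leaving out each member. Overlap counting was tested on simulated regions. Tools were Matplotlib 3.10.9, SciPy 1.17.1, pandas 2.3.3, NumPy 2.4.6 and Python 3.11.15.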

Additional observations from a re-analysis of the deposited data

How the results depend on the processing

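The 62 regions became 55 and 50 at a p of 1e-15 or 1e-20 or better, 43 at an FDR of at most 5%, 43 in the annotated spans alone, 46 and 49 with spans widened by 5 and 10 kb, 62 by summits, and 52 with regions under 500 bp apart joined, all within 1.5 times the count as reported. The median fold stayed between 12.2 and 14.1 under these alternatives, except for joined regions, where it was not computed, and without any single member. The share with an FDR of at most 5% was 86.0% at a p of 1e-20 or better, outside the interval of the reported 69.4%, and the median of Control tags was 189 at an FDR of at most 5%, against 136. Both limits remove regions with weak scores by construction. Members with 5 or more regions in the span numbered 8 as listed, 5 at a p of 1e-15, 3 at 1e-20, 2 at an FDR of at most 5% and 4 with close regions joined. In single windows, 13 of 64 counts moved by more than 1.5 times. No paired analysis was possible because each genotype has 1 library. Counting precision was lowest for the region of 16 Control tags (interval 9.1 to 26.0), and calls at other depths were not examined.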
